A study of Homo sapiens with 6 samples.

Results

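Krüppel-like factors (KLF) are zinc finger transcription factors, and 10 KLF genes were followed here in Karpas-45 T-cell leukaemia cells with and without MEF2C overexpression: KLF2, KLF3, KLF6, KLF7, KLF9, KLF10, KLF11, KLF12, KLF13 and KLF15. They were taken by gene symbol, matched to the Ensembl identifiers in the count tables without their version, and make up 10 of the 78932 gene identifiers there. The members were chosen by their measured levels and changes between the groups, including the fall of KLF2 and the rise of KLF15, so their own changes are descriptions, with no p-value, and the number past the call is printed only beside its share among all genes. KLF2 was lower and KLF15 higher in the MEF2C-OE cells, and the other 6 fitted members lay between near 0 change and a rise close in size to that of KLF15.

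KLF proteins share C-terminal zinc fingers that bind GC-rich and CACCC-type DNA, and differ in the N-terminal parts through which they activate or repress genes. Some recruit acetyltransferases, KLF3 and KLF12 bind the CtBP corepressors, and KLF9, KLF10, KLF11 and KLF13 bind the SIN3A corepressor. In T cells KLF2 is known for keeping resting cells quiescent and for the expression of the homing receptors that let them leave the thymus and enter lymph nodes, and in endothelium its gene is a target of the MEF2 factors through the kinase ERK5.

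RNA was sequenced from Karpas-45, an established T-lineage acute leukaemia line with a fusion of KMT2A and FOXO4, in 3 control and 3 MEF2C-OE libraries. Control cells are labelled WT and untreated. MEF2C-OE cells, also untreated, carried a lentiviral MEF2C transgene driven by the EF1A promoter and coupled to mCherry, and were collected by sorting for mCherry 120 hours after transduction. The sources used here do not say if the control cells carried an empty vector or passed through a sorter, and effects of MEF2C, the vector and the sort cannot be told apart. All cells came from 1 line, and the 3 libraries of a group are labelled technical replicates, so SDs and p-values reflect the spread among libraries alone, which may be technical. In bulk RNA, fewer cells that express a gene and less of its RNA per cell cannot be told apart.

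The control libraries held 51198955 to 56405139 reads assigned to genes and the MEF2C-OE libraries 48218497 to 56890745. Values are given as CPM (reads of a gene relative to library size, scaled between libraries by TMM) and as log2 fold changes of MEF2C-OE against control from edgeR. MEF2C itself had 10, 1 and 0 reads in the control libraries and 40, 29 and 41 reads in the MEF2C-OE libraries (log2 fold change 3.28, SE 0.60, edgeR adjusted p = 1.5e-05). That fold change ran from 2.73 to 5.83 with 1 library left out, the highest without control replicate 1. In CPM, MEF2C had 0.0658 ± 0.0981 in control and 0.680 ± 0.0729 in MEF2C-OE libraries, below every fitted KLF member. Counts per gene do not tell reads of the transgene from those of the native gene. How much of the transgene RNA they hold is not known. Of 12 T-lineage markers, all tested, 9 fell and the other 3 did not pass. Their summed level was 4499 to 4557 CPM in the control libraries and 3672 to 3848 CPM in the MEF2C-OE libraries. Marker lists of B, myeloid, NK, erythroid and epithelial cells each summed to at most 14.9 CPM in any library, and at most 1 gene per list was called. MS4A1, CD33, NCAM1, HBB and EPCAM had 0 reads in all 6. The highest genes of these lists were CD79A (9.41 to 11.5 CPM over the 6 libraries), CEBPA, NKG7 (1.07 to 2.08), ITGA2B and KRT8 (0.763 to 1.67). CEBPA had 3.11 to 3.67 CPM in control and 4.41 to 4.97 in MEF2C-OE libraries, and ITGA2B 1.42 to 2.20 and 0.490 to 0.654. Endothelial markers summed to 69.2 to 78.6 CPM, nearly all from PECAM1, which blood cells also express, with VWF and TEK at 0 reads. The part of these marker changes in the KLF results was not tested.

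Of the 10 KLF genes, 8 had enough reads to be fitted, 6 passed the call as higher in MEF2C-OE (edgeR adjusted p under 0.05), 1 passed as lower and KLF10 did not pass. Over all 19086 genes fitted, 41.0% were called, 20.8% higher and 20.2% lower, and nothing is read from the members' count because this contrast was used to choose them. The same 6 and 1 genes had groups that did not overlap, where 24.4% of all fitted genes did so in each direction. Among the 8 fitted members the median log2 fold change was 0.18, beside -0.011 over all fitted genes. With 1 library left out, the count called higher was 4 to 6, since KLF6 and KLF7 lost the call without control replicate 3 or MEF2C-OE replicate 1, and the count called lower was 1.

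**Figure D1:**
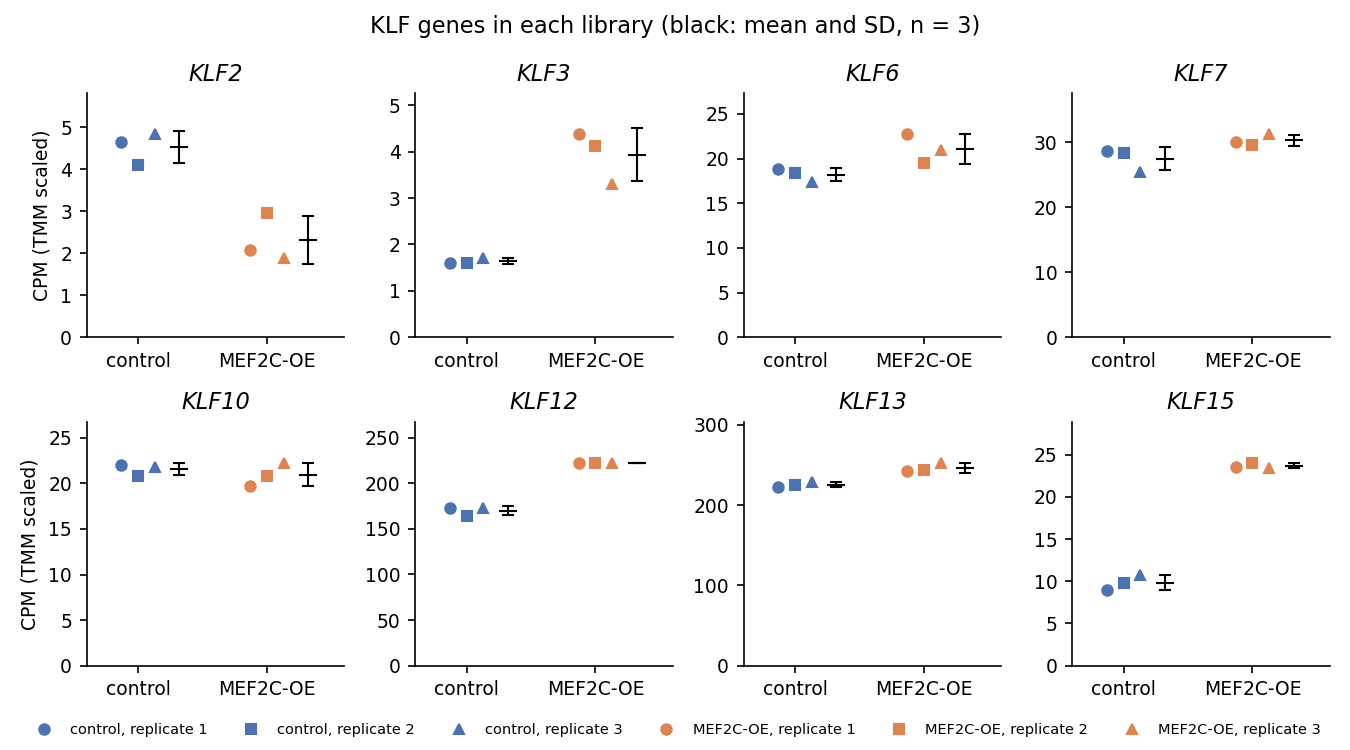
CPM of the 8 fitted KLF genes in each library (points, symbols mark the replicate number), with the mean and SD of each group in black, n = 3. KLF2 lay at 4.11 to 4.84 CPM in control and 1.89 to 2.96 in MEF2C-OE libraries, KLF15 at 9.0 to 10.8 and 23.4 to 24.1, and only the KLF10 groups overlapped.

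The promoters of KLF2 and KLF15 are shown first because the contrast between these genes is the pattern described here and MEF2C is a DNA-binding factor. Both sequences are the 250 bases before the annotated start, 5′ to 3′ on the gene's strand, from RefSeq on GRCh38.p14: chr19:16324576-16324825 on the plus strand for KLF2 and chr3:126357409-126357658 on the minus strand for KLF15. Capitals mark the match to the MEF2 consensus in KLF2 and the E-box CACGTG in KLF15.
KLF2: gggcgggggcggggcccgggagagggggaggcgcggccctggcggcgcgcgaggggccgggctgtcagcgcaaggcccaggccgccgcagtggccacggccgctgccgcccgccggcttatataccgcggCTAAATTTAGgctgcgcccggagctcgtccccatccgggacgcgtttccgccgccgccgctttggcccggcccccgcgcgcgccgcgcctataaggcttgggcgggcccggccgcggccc
KLF15: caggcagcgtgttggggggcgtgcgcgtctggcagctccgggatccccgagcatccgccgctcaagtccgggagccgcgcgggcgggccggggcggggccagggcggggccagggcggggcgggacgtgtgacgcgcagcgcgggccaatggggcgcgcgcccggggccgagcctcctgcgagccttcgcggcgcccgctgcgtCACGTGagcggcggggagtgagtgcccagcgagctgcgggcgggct
The KLF2 match begins 120 bases before the start, and the KLF15 E-box begins 46 bases before it.

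RefSeq windows from 250 bases before to 50 after a start were at hand for 8 of the 10 members, 15 windows in all, and for neither KLF3 nor KLF10. Each was searched on both strands for 7 motifs: the MEF2 and CArG consensus, CACGTG (E-box), TGACGTCA (CRE), GGGCGG (GC box), CACCC and GTAAACA (FOXO). Besides KLF2, the MEF2 consensus matched in 1 of the 4 windows of KLF12, as CTATTTTTAA beginning 190 bases before that start, while 2.99% of all 35116 windows held a match. KLF15 had none. The E-box, found in 7.26% of all windows, was also in the window of KLF6, 97 bases before the start, in 1 of 2 windows of KLF11 and in 1 of 4 windows of KLF7. GC boxes were present 6 times in the KLF2 window and 6 times in that of KLF15, and 44.95% of all windows held at least 1. No match of 1 motif shared bases with a match of another in the KLF2 and KLF15 windows. CACCC, the element for which the family is known, was in 59.9% of all windows but in neither of these, and GTAAACA, bound by FOXO factors, was in no window of a member. The windows of KLF2 and KLF15 were alike in base composition, with 80.7% and 80.3% GC. A match is a description of letters and does not show binding.

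KLF2 (ENSG00000127528.6) lies on the plus strand of chromosome 19, 16324817 to 16327874 in GRCh38. It had 261, 217 and 246 reads in the control libraries and 114, 144 and 108 reads in the MEF2C-OE libraries, which is 4.66, 4.11 and 4.84 CPM against 2.07, 2.96 and 1.89 CPM. Every control library was above every MEF2C-OE library, and MEF2C-OE replicate 2 was the highest of its group. The means were 4.54 ± 0.380 and 2.31 ± 0.572 CPM (SD, n = 3). The log2 fold change was -0.98 (SE 0.16), a level 1.98-fold lower. Over the 15 alternative settings the log2 fold change was -1.19 to -0.77. Ranked by log2 fold change, it was 428th from the lowest of 19086 genes.

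KLF15 (ENSG00000163884.4) lies on the minus strand of chromosome 3, 126342635 to 126357442. It is a factor induced by glucocorticoids that is known for amino acid and glucose metabolism in liver and muscle. Its levels were 9.0, 9.75 and 10.8 CPM in the control libraries, from 504, 515 and 547 reads. In the MEF2C-OE libraries they were 23.6, 24.1 and 23.4 CPM, from 1299, 1171 and 1340 reads. The groups were far apart, with the MEF2C-OE libraries within 1 CPM of each other. Means were 9.83 ± 0.881 and 23.7 ± 0.324 CPM (SD, n = 3), and the log2 fold change was 1.27 (SE 0.073), a 2.41-fold higher level. All 15 alternative settings gave a value from 1.21 to 1.46. KLF15 ranked 8th by log2 fold change among the 10725 genes of at least 5 CPM on average, and 159th among all 19086.

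Divided by exon length, KLF15 and KLF2 can be compared within a library. The ratio of KLF15 to KLF2 in CPM per kilobase was 1.37, 1.68 and 1.58 in the control libraries and 8.07, 5.76 and 8.79 in the MEF2C-OE libraries. In control libraries the transcripts lay within 1.68-fold of each other per length, and in the MEF2C-OE libraries KLF15 was above KLF2 by 5.76-fold or more. The lowest MEF2C-OE ratio was in replicate 2, where KLF2 was highest. Of the summed CPM per kilobase of the 10 members, KLF15 took 5.55%, 6.12% and 6.56% in control and 12.2%, 12.4% and 11.9% in MEF2C-OE libraries. KLF2 took 4.05%, 3.64% and 4.16%, then 1.51%, 2.14% and 1.35%.

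**Figure D2:**
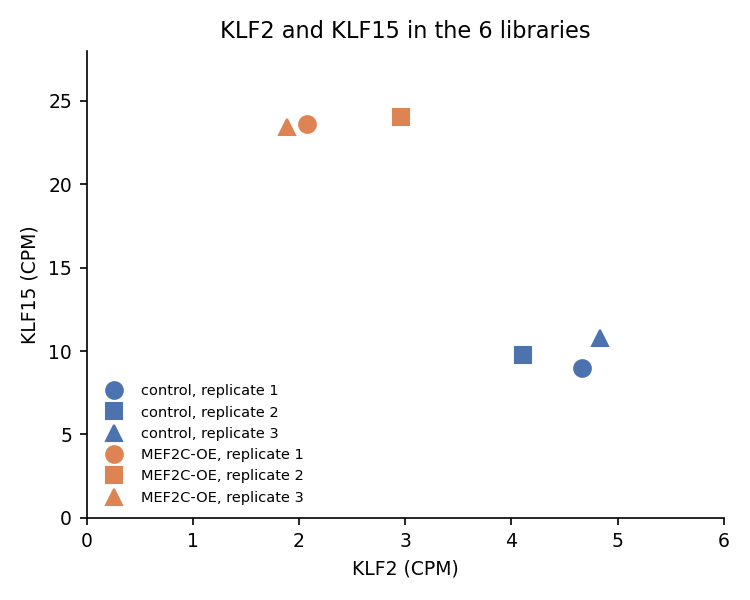
KLF15 (vertical axis, CPM) against KLF2 (horizontal axis, CPM) in the 6 libraries, with the group shown by colour and the replicate number by symbol. Control libraries sit at the lower right, with KLF2 at 4.11 CPM or more, and MEF2C-OE libraries at the upper left, with KLF15 at 23.4 CPM or more.

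KLF6 and KLF7 belong with KLF2 among the members known mainly as activators. KLF6 (ENSG00000067082.15, minus strand of chromosome 10, 3775996 to 3785281), an injury-responsive factor studied as a tumour suppressor, had 18.9, 18.4 and 17.4 CPM in control libraries and 22.7, 19.5 and 21.0 CPM in MEF2C-OE libraries. The groups did not overlap, but control replicate 1 and MEF2C-OE replicate 2 were close. Its log2 fold change was 0.21 (SE 0.067), from 18.2 ± 0.729 to 21.1 ± 1.62 CPM. It was 0.18 without control replicate 3 and 0.16 without MEF2C-OE replicate 1. KLF7 (ENSG00000118263.16, minus strand of chromosome 2, 207074137 to 207167267), best known from neurons, had 28.7, 28.3 and 25.4 CPM in control libraries and 30.1, 29.5 and 31.3 CPM in MEF2C-OE libraries. Control replicate 3 was the low library, and the groups did not overlap. Its log2 fold change was 0.14 (SE 0.056), and 0.0075 once the trends with GC content and transcript length were removed. Without control replicate 3 it was 0.088.

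The CtBP-binding repressors KLF3 and KLF12 were both higher in MEF2C-OE cells. KLF3 (ENSG00000109787.13, plus strand of chromosome 4, 38664196 to 38701042), known from red cells, B cells and fat, had 90, 85 and 87 reads in the control libraries and 241, 201 and 189 in the MEF2C-OE libraries. That is 1.61, 1.61 and 1.71 CPM against 4.38, 4.13 and 3.31 CPM. All MEF2C-OE libraries lay well above the narrow control range, and replicate 3 was the lowest of them. From 1.64 ± 0.0592 to 3.94 ± 0.562 CPM, the log2 fold change was 1.26 (SE 0.17), close in size to that of KLF15 but at a lower level. It ranked 167th among the 19086 genes and was 1.16 to 1.37 over the 15 alternative settings.

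KLF12 (ENSG00000118922.19, minus strand of chromosome 13, 73686089 to 73995056), first described as a repressor of the gene for AP-2 alpha, was much more abundant. It had 173, 164 and 172 CPM in control libraries and 222, 223 and 222 CPM in MEF2C-OE libraries. The MEF2C-OE values were nearly equal, and the groups did not overlap. Means were 170 ± 4.95 and 222 ± 0.356 CPM, with a log2 fold change of 0.39 (SE 0.025), a 1.31-fold higher level. With the GC and length trends removed it was 0.18.

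Among the SIN3A-binding members, KLF13 and KLF10 were expressed and KLF9 and KLF11 were not fitted. KLF13 (ENSG00000169926.11, plus strand of chromosome 15, 31326855 to 31435665), known in T cells as an activator of the chemokine gene CCL5, had 223, 225 and 229 CPM in control libraries and 242, 243 and 253 CPM in MEF2C-OE libraries. The groups did not overlap, though the difference was small. From 225 ± 2.86 to 246 ± 5.91 CPM, the log2 fold change was 0.13 (SE 0.024), and 0.11 to 0.19 over the 15 alternative settings. KLF10 (ENSG00000155090.15), named as an early gene of TGF-beta signalling, had 22.1, 20.8 and 21.8 CPM in control libraries and 19.7, 20.8 and 22.3 CPM in MEF2C-OE libraries. These ranges overlapped. Its log2 fold change was -0.043 (SE 0.063), from 21.6 ± 0.647 to 20.9 ± 1.27 CPM, and became 0.000369 without MEF2C-OE replicate 1.

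KLF9 (ENSG00000119138.5, minus strand of chromosome 9, 70384597 to 70414624), like KLF15 a target of the glucocorticoid receptor, had 1, 0 and 4 reads in control and 0, 0 and 1 reads in MEF2C-OE libraries. A count of 0 allows up to 3 counts, or 0.0527 to 0.0622 CPM at these depths, and this limit covers counting error only. KLF11 (ENSG00000172059.11, plus strand of chromosome 2, 10042849 to 10054836), the close relative of KLF10, is listed at 0 reads in all 6 libraries. TGIF1, a widely expressed corepressor of TGF-beta signalling, is listed at 0 as well, so no level is read from the KLF11 zeros. Neither gene was fitted.

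Per length, KLF13 and KLF12 were the most abundant members. KLF13 had 24.0 ± 0.304 CPM per kilobase in control and 26.2 ± 0.628 in MEF2C-OE libraries, and KLF12 15.6 ± 0.453 and 20.3 ± 0.0326. In control cells there followed KLF10 (5.39 ± 0.162 CPM per kilobase), KLF15 (3.45 ± 0.309), KLF6 (2.97 ± 0.119), KLF7 (2.97 ± 0.192), KLF2 (2.25 ± 0.189) and KLF3 (0.261 ± 0.00940). KLF6 and KLF7 overlapped and cannot be ordered in either group. In MEF2C-OE cells KLF15 stood above KLF10, at 8.32 ± 0.114 against 5.23 ± 0.318 CPM per kilobase, the only change of order among the fitted members. KLF2 (1.14 ± 0.284) remained above KLF3 (0.625 ± 0.0892), and the ratio of KLF3 to KLF2 per kilobase went from 0.111, 0.126 and 0.113 to 0.677, 0.447 and 0.561. The share of KLF13 in the summed levels per kilobase was 41.6% to 42.7% in control and 37.8% to 38.8% in MEF2C-OE libraries, although its CPM was higher in the latter.

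Base composition moved with the groups and is given beside these values. Among genes of at least 5 CPM, the median log2 fold change was 0.12 in the decile of lowest GC content and -0.17 in the highest decile, which spans 61.1% to 75.8% GC. KLF2 was under 5 CPM and so not among these genes, but its 65.2% GC is within the range of that highest decile. The log2 fold change of KLF2 was -0.77 with the GC and length trends removed. KLF15, with 60.5%, is in the decile just below the highest one, where the median was -0.12, and its value was 1.46 with the trends removed. The value for KLF3 (41.5% GC) was then 1.16, and for KLF13 (57.6% GC) 0.19. For KLF12, the member with the lowest GC content at 38.8%, it was 0.18 against 0.39 before. In single libraries, the deviation of the highest decile minus that of the lowest was 0.104 to 0.175 (log2) in control and -0.158 to -0.102 in MEF2C-OE libraries. The trend is confounded with the groups.

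**Figure D3:**
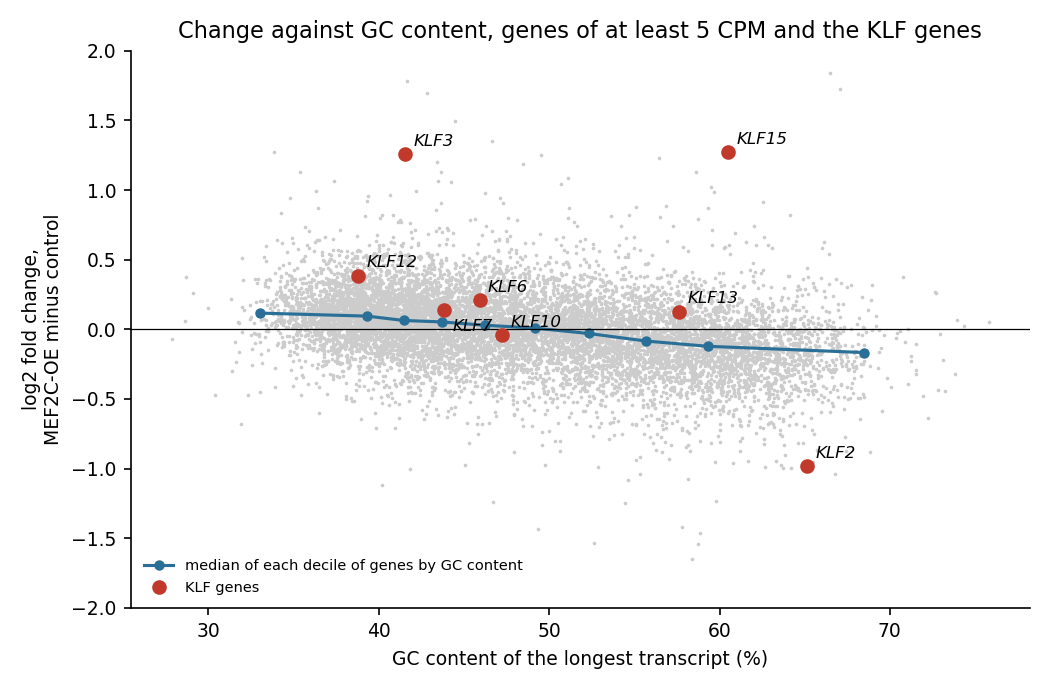
Log2 fold change of MEF2C-OE against control (vertical axis) by GC content of the longest transcript in percent (horizontal axis) for genes of at least 5 CPM (grey), with the median of each decile of genes in blue and the 8 fitted KLF genes in red, and values beyond 2 in either direction not drawn. The blue line falls from 0.12 to -0.17, and KLF15 at 1.27 lies far above it while KLF2 at -0.98 lies below it.

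Of the 8 KLF genes outside the 10 members, KLF5, KLF8 and KLF16 had enough reads to be fitted. KLF5, an activator of epithelial and progenitor growth on the same chromosome as KLF12 (chromosome 13, 73054976 to 73077542), rose by 0.56 on the log2 scale, with 6.35 ± 0.239 CPM in control and 9.38 ± 0.501 CPM in MEF2C-OE libraries (SE 0.096, edgeR adjusted p = 5.6e-06). KLF8, a CtBP-binding relative of KLF3 and KLF12, had 2.59 ± 0.540 and 3.00 ± 0.174 CPM and did not pass (0.21, edgeR adjusted p = 0.35, or 0.034 after removal of the GC and length trends). KLF16, a SIN3A-binding relative of KLF13, had 29.6 ± 2.71 and 27.3 ± 1.53 CPM and did not pass (-0.12, edgeR adjusted p = 0.12). Without control replicate 1, KLF16 was called lower at -0.19, and with the GC and length trends removed its value was 0.088. KLF1, the erythroid factor, had at most 12 reads in any library. KLF4, KLF14 and KLF18 are listed at 0 reads and KLF17 at no more than 1, from which no level is read.

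SP factors share the zinc fingers and the GC-box target of the KLF family. For this list and those below, the background is 20.8% of all fitted genes called higher and 20.2% lower, with a median log2 fold change of -0.011. Of the 6 fitted SP genes of 9, 4 rose: the median log2 fold change of the 6 was 0.25, beside -0.011 for all genes, and 0.15 with the GC and length trends removed. SP1 went from 187 ± 5.40 to 239 ± 3.54 CPM (0.35, edgeR adjusted p = 2.5e-15) and SP2 from 45.7 ± 0.964 to 59.0 ± 0.413 CPM (0.37, edgeR adjusted p = 3.4e-10). These fold changes were of the size seen for KLF12. SP3 (249 ± 3.43 to 289 ± 4.64 CPM, 0.22, edgeR adjusted p = 3.5e-10) and SP4 (76.3 ± 1.88 to 93.2 ± 1.85 CPM, 0.29, edgeR adjusted p = 9.8e-10) had 0.075 and 0.15 with the GC and length trends removed. Neither SP6 (-1.01, edgeR adjusted p = 0.16, at most 22 reads a library) nor SP9 (30.3 ± 0.170 and 29.004 ± 2.18 CPM, -0.062, edgeR adjusted p = 0.41) passed. SP9 was called higher, at 0.14, with the trends removed.

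**Figure D4:**
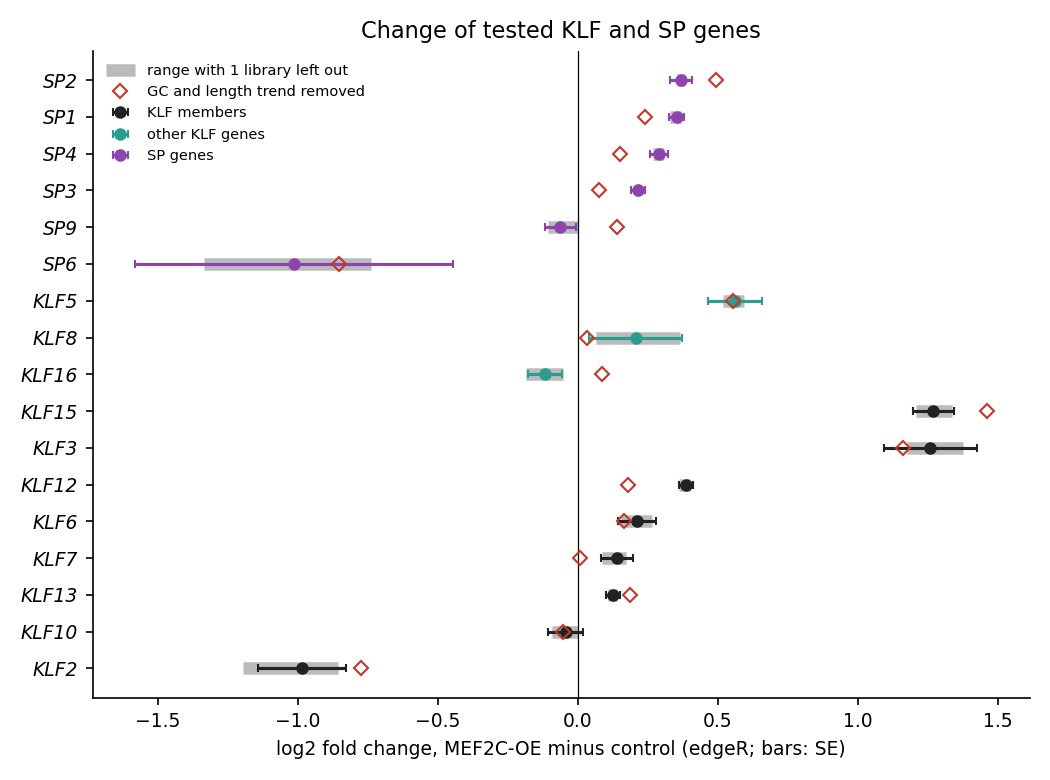
Log2 fold change of MEF2C-OE against control for the fitted KLF members (black), other KLF genes (green) and SP genes (purple), with the SE as bars, the range over fits with 1 library left out in grey and the value with GC and length trends removed as open diamonds. KLF2 at -0.98 is the lowest member, and KLF3 at 1.26 and KLF15 at 1.27 stand apart from KLF5 at 0.56 and the rest.

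KLF2 transcription is known to be driven by the kinase cascade of MEKK2, MEKK3, MEK5 and ERK5 acting on MEF2 factors, to be held down by class IIa histone deacetylases and the CCM proteins, and to be raised by FOXO factors in T cells. Of 17 genes of this route, all fitted, 6 rose and 6 fell, with a median log2 fold change of -0.0068, beside -0.011 for all genes. Deacetylase genes HDAC5 (36.7 ± 1.15 to 27.5 ± 0.0694 CPM, -0.42, edgeR adjusted p = 6.2e-09) and HDAC7 (202 ± 2.67 to 154 ± 2.50 CPM, -0.39, edgeR adjusted p = 1.6e-16) fell. MAP3K2, the gene of MEKK2, rose from 264 ± 4.28 to 339 ± 7.39 CPM (0.36, edgeR adjusted p = 1.7e-16), and had 0.14 with the GC and length trends removed. PDCD10, which encodes CCM3, rose by 0.35 (edgeR adjusted p = 2.3e-07). Named after their values were seen, MAP2K5 (MEK5) rose by 0.31 (edgeR adjusted p = 2.5e-07) and MAPK7 (ERK5) by 0.19 (edgeR adjusted p = 0.0017), which was 0.31 with the GC and length trends removed. Also named after their values were seen, MEF2A (0.31, edgeR adjusted p = 5.9e-13) and FOXO3 (0.27, edgeR adjusted p = 8.0e-08) rose, both by 0.19 with the trends removed. MEF2B and FOXO1 did not pass. MEF2D (-0.15, edgeR adjusted p = 0.0013), the coactivator gene CRTC2 (-0.17, edgeR adjusted p = 0.0086) and CCM2 (-0.31, edgeR adjusted p = 2.9e-07) fell. KRIT1, which encodes CCM1, did not pass (-0.016, edgeR adjusted p = 0.84). With the GC and length trends removed CRTC2 had 0.011, MEF2D did not pass (-0.084, edgeR adjusted p = 0.060) and KRIT1 was called lower (-0.12, edgeR adjusted p = 0.042). CRTC2 also lost its call without MEF2C-OE replicate 2. Genes of the route thus changed in both directions.

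Genes that KLF2 is known to raise or lower in T cells and endothelium were counted next. Of 14, 11 were fitted, 1 rose and 5 fell, with a median of -0.32 beside -0.011 for all genes. The list mixes genes that KLF2 raises with genes that it lowers, so its counts and median give no direction of KLF2 output. The median is the value of a gene that did not pass. S1PR1, the egress receptor that is the best known KLF2 target in T cells, was below the level set for naming and was picked out after its values were seen. It had 41, 34 and 28 reads in control and 3, 5 and 10 reads in MEF2C-OE libraries, that is 0.642 ± 0.0908 and 0.111 ± 0.0606 CPM, with a log2 fold change of -2.50 (SE 0.50, edgeR adjusted p = 6.2e-05).

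CCR7, a homing receptor chosen after its values were seen, had 34, 12 and 24 reads in control and 15, 1 and 3 in MEF2C-OE libraries. These groups overlapped, and the fall (-1.88, edgeR adjusted p = 0.012) lost its call without control replicate 1 (-1.56), MEF2C-OE replicate 2 (-1.42) or MEF2C-OE replicate 3 (-1.52), and was -3.46 without MEF2C-OE replicate 1. CD69, whose protein removes S1PR1 from the cell surface, fell from 10.6 ± 1.80 to 7.02 ± 0.442 CPM (-0.60, edgeR adjusted p = 5.1e-06). Of the genes tied to quiescence, CDKN1A, a cell cycle inhibitor that KLF2 is known to activate, rose from 10.1 ± 0.495 to 13.2 ± 1.00 CPM (0.39, edgeR adjusted p = 0.00017). MYC, which KLF2 is known to repress, fell from 131 ± 3.17 to 105 ± 3.18 CPM (-0.31, edgeR adjusted p = 1.3e-11). The integrin gene ITGB7 (-0.17, edgeR adjusted p = 0.64) and IL7R (0.18, edgeR adjusted p = 0.60) did not pass, and THBD had 0 reads.

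KLF proteins act through corepressors and acetyltransferases and are degraded through ubiquitin ligases. Of 20 such genes, all fitted, 9 rose and 4 fell (median 0.037). The acetyltransferase genes CREBBP (162 ± 3.07 to 224 ± 3.64 CPM, 0.47, edgeR adjusted p = 3.8e-19) and EP300 (184 ± 3.77 to 243 ± 1.44 CPM, 0.40, edgeR adjusted p = 1.9e-17) rose. NCOR1, the gene of a nuclear receptor corepressor, rose as well, from 304 ± 1.70 to 409 ± 11.9 CPM (0.43, edgeR adjusted p = 4.4e-19). KAT2A, an acetyltransferase gene, fell from 71.3 ± 3.08 to 50.3 ± 0.384 CPM (-0.50, edgeR adjusted p = 2.7e-14). With the GC and length trends removed NCOR1 had 0.28 and KAT2A -0.33.

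KLF9 and KLF15 are textbook targets of the glucocorticoid receptor. Of 15 genes of the receptor and its other targets, 13 were fitted, 3 rose and 4 fell (median -0.039). The receptor gene NR3C1 rose from 115 ± 3.53 to 159 ± 4.0 CPM (0.47, edgeR adjusted p = 2.7e-17), and by 0.31 with the GC and length trends removed. The targets DDIT4 (426 ± 9.42 to 239 ± 2.08 CPM, -0.83, edgeR adjusted p = 2.5e-28), DUSP1 (-0.68, edgeR adjusted p = 1.5e-06) and SGK1 (-0.55, edgeR adjusted p = 0.00093) fell. Named after their values were seen, the targets FKBP5 (0.22, edgeR adjusted p = 3.1e-11) and BCL2L11 (0.43, edgeR adjusted p = 2.5e-15) rose. With the GC and length trends removed FKBP5 had 0.083 and BCL2L11 0.37. Targets of the receptor thus changed in both directions in the libraries where KLF15 was higher.

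KLF15 is known to control amino acid, glucose and lipid metabolism. Of 16 such genes and close relatives, 11 were fitted, 5 rose and 2 fell (median 0.053), and 3 rose with the GC and length trends removed. PCK2, the mitochondrial PEP carboxykinase, rose from 18.5 ± 1.67 to 28.6 ± 1.37 CPM (0.62, edgeR adjusted p = 7.2e-11), and GPT2, a mitochondrial alanine aminotransferase, from 68.4 ± 1.40 to 102 ± 3.17 CPM (0.57, edgeR adjusted p = 5.1e-18). BCAT2, a branched-chain aminotransferase, fell from 45.5 ± 0.967 to 34.4 ± 1.41 CPM (-0.40, edgeR adjusted p = 1.6e-09, or -0.21 after removal of the GC and length trends), and the acetyl-CoA synthetase gene ACSS2 from 3.02 ± 0.283 to 1.79 ± 0.141 CPM (-0.75, edgeR adjusted p = 0.00046). GPT, with at most 42 reads a library, did not pass (0.0076, edgeR adjusted p = 0.99). SLC2A4, PCK1, PDK4, PRODH and TAT, also in this list, had at most 20 reads in any library and were not fitted. The list did not mark which genes are targets and which are relatives, so its counts do not speak for targets alone.

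KLF10 and KLF11 were first named as early genes of TGF-beta signalling. Of 17 genes of this pathway, 16 were fitted, 3 rose and 5 fell (median -0.047). The response genes ID2 (3.10 ± 0.154 to 1.22 ± 0.292 CPM, -1.33, edgeR adjusted p = 2.3e-07) and ID3 (48.8 ± 2.63 to 27.4 ± 1.90 CPM, -0.83, edgeR adjusted p = 4.1e-17) fell. SKIL, the gene of a SMAD corepressor, rose by 0.36 (edgeR adjusted p = 9.8e-09), and by 0.20 with the GC and length trends removed. The inhibitor gene SMAD6 fell (-0.50, edgeR adjusted p = 0.023), but lost the call without control replicate 1 (-0.41), control replicate 3 (-0.50) or MEF2C-OE replicate 1 (-0.43), and with the GC and length trends removed (-0.39). Named after its values were seen, PMEPA1 rose from 531 ± 6.19 to 641 ± 3.25 CPM (0.27, edgeR adjusted p = 2.4e-14). Genes of the pathway thus changed in both directions, and KLF10 had a log2 fold change of -0.043 with overlapping groups.

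**Figure D5:**
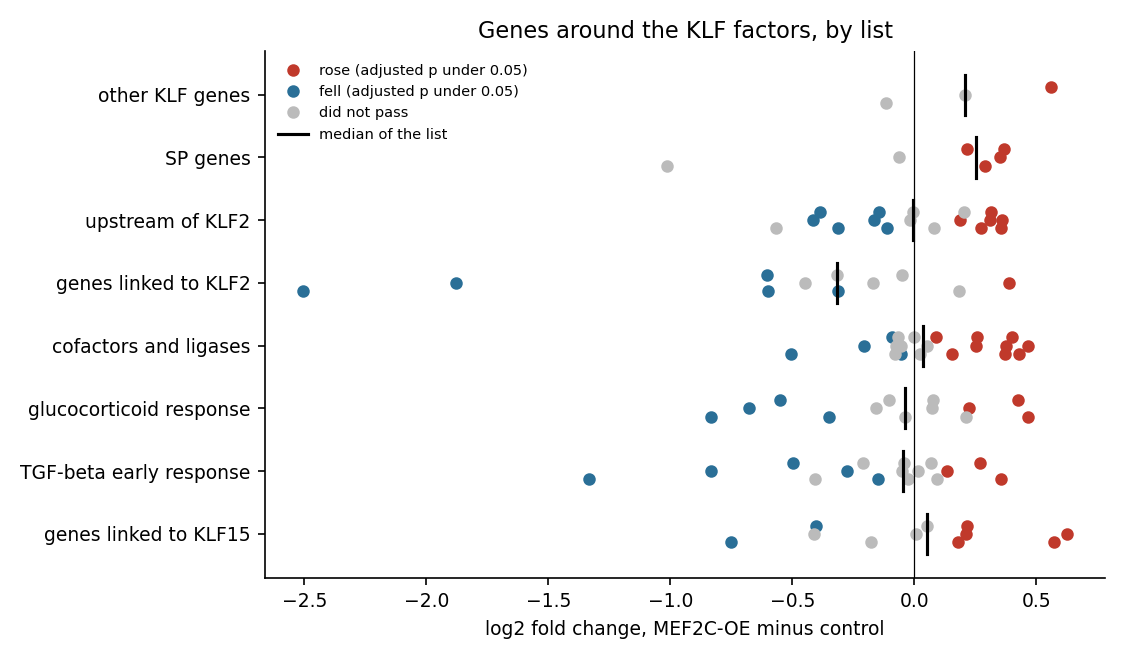
Log2 fold change of MEF2C-OE against control (horizontal axis) for every fitted gene of the 8 lists around the KLF factors, red where the gene rose and blue where it fell at an adjusted p under 0.05, grey otherwise, with the list's median as a black bar. The median lies at -0.32 for genes linked to KLF2, a list that mixes genes KLF2 raises with genes it lowers, and at 0.25 for SP genes. It lies within 0.05 of 0 for the upstream, cofactor, glucocorticoid and TGF-beta lists.

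The chromosomal neighbours of KLF2 had smaller differences than KLF2, and the size of that gap was not tested. AP1M1, 78910 bases away, fell from 69.9 ± 2.15 to 63.2 ± 1.03 CPM (-0.14, edgeR adjusted p = 0.0012, or -0.30 after removal of the GC and length trends), and EPS15L1, 27365 bases away on the other side, had 58.1 ± 0.462 and 59.3 ± 1.92 CPM (0.027, edgeR adjusted p = 0.63). Around KLF15 the nearest protein-coding genes gave no comparison, with ALDH1L1, 144641 bases away, listed at 0 reads and CFAP100, 37497 bases away, at 4 or fewer. Transcripts annotated over members were few in reads, with at most 12 for KLF3-AS1, which overlaps the start of KLF3 on the other strand, and at most 23 for KLF7-IT1 within KLF7. Of pseudogene copies, KLF3P1 had at most 30 reads and KLF2P1 to KLF2P4 had 0, and reads that fit a gene and its copy equally were not counted. The sources used here do not give the strand setting of the counting, and reads of overlapping genes on opposite strands may not be separable.

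Genes with the profile most like that of each gene were found by the root mean square distance of log2 CPM, centred on the control mean, over the 6 libraries. Nearest to KLF2 among 10285 genes were CYP27C1 (0.0931), a cytochrome P450 of retinoid metabolism, DUSP2 (0.0997), a phosphatase of MAP kinases, and FUOM (0.122), a fucose mutarotase. DUSP2 went from 22.6 ± 1.68 to 12.1 ± 1.89 CPM. Nearest to KLF15 among 10284 genes were PLEK (0.0549), the gene of pleckstrin, SLITRK5 (0.0649), a neuronal membrane protein gene, and the non-coding LINC02806 (0.0657). PLEK went from 8.53 ± 0.732 to 21.7 ± 0.336 CPM, a level and a change close to those of KLF15. These genes were chosen for their likeness, and no test was made of it.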

How the data were processed

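RNA of 3 control and 3 MEF2C-OE libraries was sequenced from TruSeq libraries, per the labels' protocols. The deposited values are raw read counts per gene, 1 file per library, which the authors made with Trim Galore, STAR and HTSeq on hg38, per the submitters' processing notes. The sources used here give no versions, annotation release or strand setting. Besides 78932 gene identifiers each file held 5 summary lines, which entered neither library sizes nor tests. They put reads outside features at 20.9% to 21.8%, ambiguous reads at 3.31% to 3.46% and multiply aligned reads at 4.03% to 4.68%, so reads shared by near-identical copies were not counted. Replicates of a group differed by more than counting noise (chi-square per degree of freedom 3.08 to 5.17).

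Groups follow the sample titles. The groups were compared with edgeR 4.0.16 under R 4.3.3 (filterByExpr, TMM, glmQLFit with robust estimation, glmQLFTest, Benjamini-Hochberg adjustment over 19086 genes, called under 0.05). The biological coefficient of variation was 3.67%. Symbols came from a gene name table, and positions, exon lengths and GC content from GENCODE 29, which gave GC content for 88.8% of fitted genes. Promoter windows are from RefSeq. The test was checked on simulated counts. Alternatives were other scalings and count filters, DESeq2 1.42.0, limma 3.58.1 (voom), a replicate block, removal of GC and length trends by splines of 5 degrees of freedom, and leaving out each library. Figures used matplotlib 3.10.9.

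The members and all gene lists were chosen with earlier results of these data known. Named were the members, KLF and SP genes with at least 10 reads in a library, up to 4 called genes per further list, those of largest change with a mean of 1 CPM or more, neighbours and overlapping genes, MEF2C, and the 3 genes nearest in profile to KLF2 and to KLF15 at a mean of at least 5 CPM. Some genes that this rule takes are left out of the text.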

Additional observations from a re-analysis of the deposited data

How the results depend on the processing

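The alternatives were followed for 54 named genes with a fitted change. Of these, 47 kept their direction and their side of the threshold in every setting that could be fitted for them. That was 15 settings, or 14 for MEF2C, S1PR1 and SP6, which fall under the filter of 1 CPM in 3 libraries. Not among the 54 were MEF2A, MEF2B, MEF2D, FOXO1, FOXO3, CRTC2, CCM2, KRIT1, ITGB7, IL7R, FKBP5, BCL2L11, GPT and PMEPA1. Among them, MEF2D and CRTC2 lost the call and KRIT1 gained it with the GC and length trends removed, and ITGB7 turned to 0.0065. CRTC2 also lost the call without MEF2C-OE replicate 2. With GC and length trends removed, 2 genes linked to KLF2 and 3 genes linked to KLF15 were called higher, and with library totals alone 5 TGF-beta genes were. KLF16 turned to 0.088 and SP9 to 0.14 with these trends removed, and with 1 library left out KLF10 ran from -0.090 to 0.000369 and SP9 from -0.11 to 0.000154, both highest without MEF2C-OE replicate 1. The cause was not tested. With 1 library left out, 0 to 1 other KLF genes were called lower, the 1 being KLF16 without control replicate 1, and 3545 to 3773 genes were called higher and 3353 to 3652 lower. The replicate numbers did not pair the libraries: deviations of same-numbered libraries correlated at 0.0247, -0.0313 and -0.0265 (Pearson, across genes). With the replicate block 3953 genes were called higher and 3845 lower, and no call of the 54 genes changed. KLF9 could be fitted only without a count filter. Depth limits the genes of few reads, MEF2C, S1PR1, CCR7, KLF9 and SP6 among them.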
